A study of Mus musculus with 12 samples.

Results

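The genes described here are 31 genes of cholesterol synthesis, of its control by SREBP2 and of sterol transport, out of 55573 genes counted by RNA-seq in mouse adipocytes. They were found in the table by gene symbol, with no cut on their values, and all 31 were among the 15117 genes with enough counts to be tested. By role they comprise 20 synthesis enzymes, 4 genes of SREBP2 control (Srebf2, Scap, Insig1 and Insig2), and 7 genes of transport, esterification and efflux (Stard4, Npc1, Npc2, Soat1, Abca1, Abcg1 and Nr1h2).

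The study asked how phosphorylation of PPARγ, the nuclear receptor that drives adipocyte differentiation, at threonine 166 of its DNA-binding domain affects adipocyte gene expression. The genotypes compared, with 4 libraries each, were wild type (WT), homozygous T166A (TA), in which alanine cannot be phosphorylated, and homozygous T166D (TD), in which aspartate stands in for a phosphorylated threonine. Both alleles are germline changes made with CRISPR-Cas9 in every cell of mice whose strain background the labels give as C57BL/6 and the study's methods as C57BL/6 J, with WT littermates from heterozygous crosses as controls, and the ages of the donors of these cells are not given in the sources used here. The adipocytes were differentiated from stromal vascular fractions, the mixed non-adipocyte cells of subcutaneous fat, in the same way for every genotype: 4 days in 10% fetal bovine serum with 850 nM insulin, 1 nM T3, 0.5 mM IBMX, 125 nM indomethacin and dexamethasone (5 mM in the labels, the same figure in micromolar in the study's methods), then insulin and T3 until harvest on day 8. The sources do not say whether the 4 libraries of a genotype come from separate mice or from separate dishes, so p-values measure the spread between these libraries, which may be technical.

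Cholesterol is built from acetyl-CoA by way of mevalonate, isoprenoid diphosphates, squalene and lanosterol. SREBP2 (Srebf2) is made as a precursor held in the endoplasmic reticulum with its escort SCAP. When sterols are high, INSIG1 and INSIG2 retain this complex, and when sterols fall SCAP carries SREBP2 to be cleaved, after which it switches on most synthesis enzymes, Insig1 and Stard4. Sterols in excess, as oxysterols, activate the LXR receptors (Nr1h2 encodes LXRβ), which switch on the exporters ABCA1 and ABCG1. Adipocytes hold a large store of free cholesterol in the surface and membranes around their lipid droplets.

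SREBP2 binds sterol response elements near start sites together with NF-Y, which recognises CCAAT. RefSeq promoter windows on GRCm38.p6, from 250 bases before to 50 bases after an annotated start, were matched for 24 of the 31 genes, and not for Acat3, Fdps, Fdft1, Sqle, Stard4, Npc1 and Abcg1. The windows of 4 genes on which the results below turn are shown 5′ to 3′ on the gene's own strand, with matches to the sterol response element TCACNCCAC and to CCAAT or its reverse complement ATTGG in capitals.
Hmgcs1 (chr13:119690101-119690400, plus strand): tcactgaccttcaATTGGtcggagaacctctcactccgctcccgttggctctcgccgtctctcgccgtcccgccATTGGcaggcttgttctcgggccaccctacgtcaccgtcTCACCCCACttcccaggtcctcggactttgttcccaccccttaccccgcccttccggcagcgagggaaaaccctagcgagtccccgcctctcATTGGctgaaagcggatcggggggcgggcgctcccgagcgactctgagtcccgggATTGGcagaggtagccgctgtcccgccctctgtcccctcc
Cyp51 (chr5:4104648-4104947, minus strand): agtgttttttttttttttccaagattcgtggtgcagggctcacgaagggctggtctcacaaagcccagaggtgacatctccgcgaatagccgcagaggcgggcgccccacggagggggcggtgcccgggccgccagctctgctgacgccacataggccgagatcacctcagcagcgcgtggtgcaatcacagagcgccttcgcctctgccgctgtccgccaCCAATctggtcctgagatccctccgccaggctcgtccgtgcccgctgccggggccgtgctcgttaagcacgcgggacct
Insig1 (chr5:28071162-28071461, plus strand): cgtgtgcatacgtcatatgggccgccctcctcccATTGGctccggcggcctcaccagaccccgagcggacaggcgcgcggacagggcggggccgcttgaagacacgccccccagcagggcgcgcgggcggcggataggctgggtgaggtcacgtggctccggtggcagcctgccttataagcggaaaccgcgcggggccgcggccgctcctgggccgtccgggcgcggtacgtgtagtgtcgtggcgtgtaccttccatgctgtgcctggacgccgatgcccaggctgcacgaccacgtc
Insig2 (chr1:121332540-121332839, minus strand): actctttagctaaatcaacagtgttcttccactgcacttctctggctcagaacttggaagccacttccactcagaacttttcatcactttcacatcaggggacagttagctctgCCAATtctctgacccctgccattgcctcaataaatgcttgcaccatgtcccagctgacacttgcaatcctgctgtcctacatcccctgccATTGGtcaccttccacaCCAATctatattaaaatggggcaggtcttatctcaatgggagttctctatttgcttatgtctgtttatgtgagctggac
In the Hmgcs1 window the sterol element began 137 bases before the start site, between NF-Y boxes 176 and 45 bases before it. The Cyp51 window held 1 NF-Y box, 29 bases before the start, and the Insig1 window 1 box, 216 bases before it. This Insig2 window, 1 of several listed for the gene, held 3 boxes, and its other windows held none. Across the synthesis enzymes with a window, 15 of 16 (93.8%) had an NF-Y box on either strand, the exception being Acat2, against 42.8% of the 10870 tested genes with a window and 41.1% of all 27025 genes. Counted by window rather than by gene, the shares were 78.9% for the synthesis enzymes and 37.4% for all 32851 windows. The letters TCACNCCAC were found in Hmgcs1 alone of the 24 genes, and in 1.43% of tested genes. GGGCGG, the Sp1 box, was in 87.5% of the 24 genes and 66.9% of tested genes, and the E-box CACGTG in 25% and 11.5%. These are matches of letters in 1 window, not measured binding sites.

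Library totals were 18823619 to 20324286 counts in WT, 16950175 to 18182526 in TA and 16553324 to 18357864 in TD. Levels are given as CPM, the counts scaled to library size after edgeR's TMM factors, and a gene was called when its adjusted p was under 0.05 in edgeR's quasi-likelihood test with Benjamini-Hochberg adjustment over all tested genes. Adipocyte markers were high everywhere: the 8 summed to 12440 to 14827 CPM in WT, 12835 to 16761 in TA and 8260 to 10129 in TD. Of these 8 markers, 6 were called lower in TD than WT, as was Pparg itself (log2 fold change -0.58, SE 0.0946, edgeR adjusted p = 0.000429), whereas 1 was called higher and 1 lower in TA than WT. Fibroblast and preadipocyte markers, with 9 of 10 tested, summed to 9350 to 12651 CPM in WT, 10594 to 18921 in TA and 15996 to 24015 in TD, with 8 called higher in TD than WT and 6 in TA than WT. Dlk1, a preadipocyte marker, was at 0 in WT and TD. Skeletal muscle markers summed to 1.09 to 3.84 CPM in WT, 5.83 to 30.6 in TA and 5.85 to 104 in TD, where 7 of 7 tested were called higher than in WT, against 4 of 7 in TA, and Myog and Myod1 were at 0 in WT. Of 6 endothelial markers 6 were called higher in TD than WT and 3 in TA than WT (summed, 25.0 to 53.5 CPM in WT, 47.2 to 85.3 in TA and 100 to 126 in TD). In TD against TA, 6 of 8 adipocyte markers were called lower and 1 higher, and Pparg differed by -0.66 (edgeR adjusted p = 0.000269). Called higher there were 3 of 9 tested fibroblast and preadipocyte markers, 2 of 7 tested skeletal muscle markers and 3 of 6 endothelial markers. The part of this mixture in the differences below was not tested, and in bulk RNA fewer cells of a type and less RNA per cell cannot be told apart.

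Compared per kilobase of exon, Cyp51 was the highest of the 31 genes in every genotype, at 249 ± 25.8 CPM per kb in WT, 482 ± 44.6 in TA and 212 ± 15.2 in TD (SD, n = 4). It was followed on this scale by Npc2, the soluble lysosomal cholesterol carrier, at means of 239, 208 and 199 CPM per kb for WT, TA and TD, with coefficients of variation of 8.36%, 8.48% and 3.19%. Cyp51 and Npc2 did not differ beyond their spread in WT and TD, whereas in TA they were far apart. Insig1 was next in each genotype, and Acat3 was last in each, at 1.27 to 2.40 CPM per kb. The median coefficient of variation over the 31 genes was 9.02% for WT, 10.4% for TA and 5.81% for TD. The widest were Soat1 in WT (31.3%) and Acat3 in TA (28.9%).

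Cholesterol synthesis enzymes, led by Cyp51, rose in TA over WT more often than they fell. Of the 31 genes, 11 rose and 1 fell in TA against WT, or 35.5% and 3.23%, where 6.72% of all tested genes rose and 4.41% fell. Among the 20 synthesis enzymes 9 rose, and edgeR called 0 lower, with 0 lower also at an unadjusted p under 0.05 and by DESeq2. The median log2 fold change of the enzymes was 0.26, with 18 of 20 above 0, and that of all tested genes was -0.006. The number of the 31 that rose became 6 when WT replicate 3 was left out, and 7 when either WT replicate 2 or TA replicate 1 was.

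Positions are those of GENCODE M21 on GRCm38. Cyp51 (chr5:4081145-4104746, minus strand), the cytochrome that removes a methyl group from lanosterol, carried the largest rise of any enzyme. It measured 1165, 964, 1055 and 1219 CPM in the WT libraries and 2371, 2183, 2041 and 1912 CPM in the TA libraries. Every TA library lay far above every WT library. The log2 fold change was 0.95 (SE 0.0954, edgeR adjusted p = 7.54e-06), a fold of 1.93. Hsd17b7, a ketoreductase that acts on the sterol ring later in the pathway, measured 71.1, 56.3, 68.3 and 64.6 CPM in WT and 117, 96.8, 88.5 and 71.3 CPM in TA. The lowest TA library was level with the highest WT library and the others were clearly above it. Hsd17b7 rose by 0.52 on the log2 scale (SE 0.115, edgeR adjusted p = 0.00732). Pmvk (chr3:89454541-89469013, plus strand), which adds the second phosphate to mevalonate, measured 195, 185, 167 and 207 CPM in WT and 268, 283, 199 and 292 CPM in TA, where only TA replicate 3 fell within the WT range. Its log2 fold change was 0.47 (SE 0.119, edgeR adjusted p = 0.0177), and the call was lost without WT replicate 3 or TA replicate 4 (highest adjusted p = 0.0610).

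The other enzymes called higher in TA act on squalene or on the sterol ring. On the log2 scale the rises over WT were 0.35 for Ebp, the sterol isomerase, 0.34 for Tm7sf2, a sterol reductase, 0.33 for Sqle, the squalene epoxidase that is a slow step of the pathway, and 0.33 for Nsdhl, a sterol dehydrogenase. Sc5d, the desaturase, rose by 0.30 and Lss, which closes squalene epoxide into lanosterol, by 0.24, with edgeR adjusted p of 0.0423 and 0.0457. The call for Lss held in 5 of 19 other settings, that for Tm7sf2 in 9 and that for Sc5d in 10, whereas those for Cyp51, Hsd17b7, Nsdhl and Ebp held in 19. Tm7sf2 also shares 532 exon bases on the same strand with Vps51 (mean counts 391.4 and 420.4), so its count is uncertain, and Vps51 itself differed by 0.00 in TA against WT (adjusted p = 0.982).

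**Figure D1:**
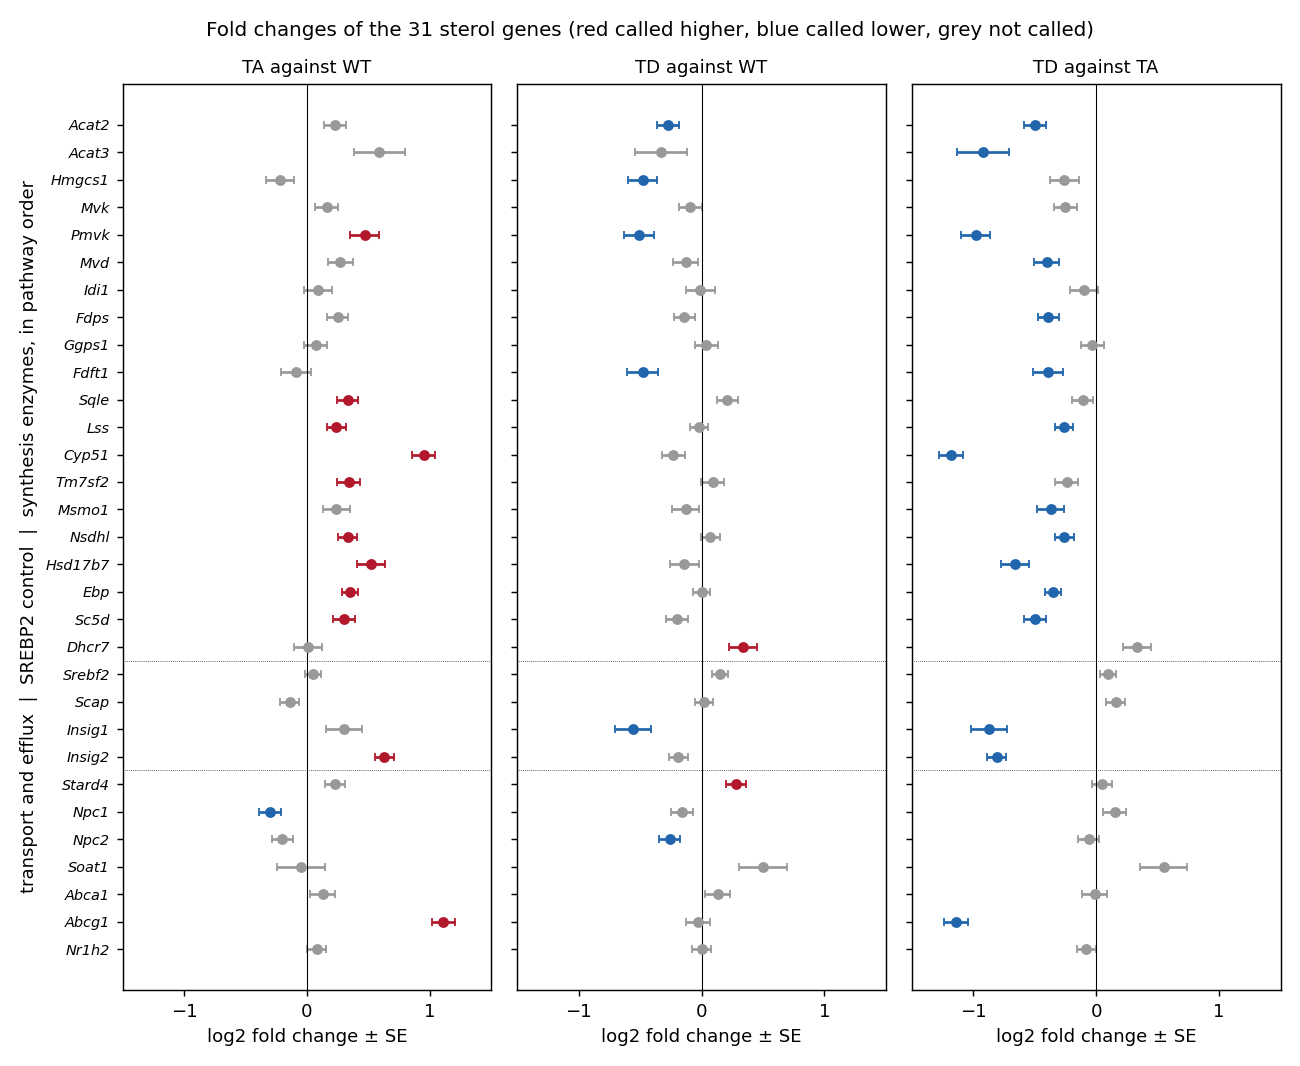
Log2 fold change with its SE for each of the 31 genes, in pathway order for the enzymes and then by role, in TA against WT (left), TD against WT (middle) and TD against TA (right). Red points were called higher, blue lower and grey not called at an edgeR adjusted p of 0.05. In the left panel 8 of the 10 enzymes from Sqle on are red, and in the middle panel the 4 blue enzymes are Acat2, Hmgcs1, Pmvk and Fdft1.

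The calls can also be counted along the pathway, before and from squalene epoxidation, a split made after the values were seen. From squalene epoxidation on, 8 of 10 enzymes were called higher in TA than WT, all but Msmo1 and Dhcr7, with a median log2 fold change of 0.33. Every TA library lay above every WT library for 6 of these 10, a count not made over all tested genes. Of the 10 enzymes from Acat2 to Fdft1, Pmvk alone was called higher in TA (1 of 10, median 0.20), where 6.72% of all tested genes rose. At an unadjusted p under 0.05 Acat3 (log2 fold change 0.59), Mvd (0.27), Fdps (0.25) and Acat2 (0.23) were also higher in TA. Among the later enzymes Msmo1 (0.24) was higher at that threshold too. In TD against WT 4 of the 10 enzymes up to squalene fell (median -0.21), where 14.2% of all tested genes fell, and of the 10 later enzymes edgeR called 0 lower and 1, Dhcr7, higher (median -0.01). At an unadjusted p under 0.05 and among later enzymes, Cyp51 (log2 fold change -0.23, adjusted p = 0.0763) and Sc5d (-0.20, adjusted p = 0.0979) were lower in TD, and DESeq2 called Cyp51. Sqle (0.21, edgeR adjusted p = 0.0737) was higher in TD at that threshold, with every TD library above every WT library. It was called higher in TD than WT in 2 of 19 other settings. Whether the 2 stretches differ was not tested.

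In TD against WT, Hmgcs1, Pmvk, Fdft1, Acat2, Insig1 and Npc2 fell and Dhcr7 and Stard4 rose. Of the 31 genes, 2 rose and 6 fell (6.45% and 19.4%), where 15.1% of all tested genes rose and 14.2% fell, so the share that fell was near that of all genes and the share that rose below it. The median of the 20 enzymes was -0.13, with 15 of 20 below 0, against 0.011 over all tested genes. Leaving out TD replicate 3 brought the number that rose to 0, and leaving out WT replicate 2 or TD replicate 4 to 1. Scaling by library totals alone gave 5 that rose and 4 that fell, and moved the share of higher calls among all called genes from 51.5% to 64.6%.

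Hmgcs1 (chr13:119690379-119708260, plus strand), which condenses acetoacetyl-CoA into HMG-CoA and whose promoter window holds the sterol element shown above, measured 349, 230, 269 and 347 CPM in WT and 224, 206, 214 and 211 CPM in TD. The TD libraries were tightly grouped, and each was below the lowest WT library, though that one was close to them. The log2 fold change was -0.48 (SE 0.117, edgeR adjusted p = 0.00569). Pmvk, at 161, 125, 129 and 116 CPM in TD, was also below every WT library and fell by 0.51 on the log2 scale (SE 0.12, edgeR adjusted p = 0.00481). Pmvk was the only gene called in all 3 comparisons, with WT between TA and TD. Fdft1, squalene synthase, measured 141, 127, 118 and 143 CPM in WT and 103, 96.7, 94.4 and 83.9 CPM in TD, again without overlap (log2 fold change -0.48, SE 0.124, edgeR adjusted p = 0.00811). Fdft1 shares 774 exon bases with Ctsb on the opposite strand, whose mean count was 31440.0 against 2136.3 for Fdft1, and whether strand was used in counting is not given in the sources used here, so the value of Fdft1 is uncertain. Ctsb itself was not called in TD against WT (log2 fold change -0.19, adjusted p = 0.0591). Acat2, the cytosolic thiolase that opens the pathway, fell by 0.27 on the log2 scale (edgeR adjusted p = 0.0323), a call that held in 12 of 19 other settings and was lost with library totals and without WT replicate 1, WT replicate 4 or any TD replicate (highest adjusted p = 0.118).

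Dhcr7, the reductase of the final step to cholesterol, went the other way. It measured 51.4, 38.0, 42.2 and 55.3 CPM in WT, 52.4, 41.1, 47.7 and 47.0 CPM in TA, and 56.9, 51.8, 61.4 and 65.9 CPM in TD. The TD libraries were the highest on average but overlapped with WT. Dhcr7 rose in TD over WT by 0.34 on the log2 scale (SE 0.113, edgeR adjusted p = 0.0343). The call was lost without WT replicate 2, WT replicate 3, TD replicate 3 or TD replicate 4 (highest adjusted p = 0.115). Against TA the difference was 0.33 (adjusted p = 0.0591), and it was called in 9 of 19 other settings.

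TD and TA differed most. Of the 31 genes, 16 were lower in TD (51.6%), where 9.37% of all tested genes were lower and 7.33% higher. edgeR called 0 of the 31 higher in TD, although Dhcr7, Soat1 and Scap reached an unadjusted p under 0.05 and DESeq2 called Dhcr7 and Soat1. Of the 20 synthesis enzymes 13 fell, with a median log2 fold change of -0.36 against 0.023 over all tested genes. For 15 of the 31 genes every TD library lay below every TA library. The share of all tested genes without such overlap was not counted, so whether 15 is unusual cannot be told. Comparisons with TA and with WT share libraries, so these counts are not independent of those above. With library totals alone 3 were called higher, and the share of higher calls among all called genes moved from 43.9% to 64.7%, with a shift of the median of all genes to 0.10.

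Cyp51 measured 922, 848, 987 and 992 CPM in TD, less than the lowest TA library by a wide margin. Its log2 fold change in TD against TA was -1.18 (SE 0.0959, edgeR adjusted p = 1.19e-06). Pmvk fell by 0.98 between the same groups (SE 0.12, edgeR adjusted p = 6.72e-05). Acat3, a thiolase closely related to Acat2, was scarce, at 4.33, 8.24, 5.29 and 5.45 CPM in TA, 2.55, 3.13, 3.03 and 3.58 CPM in TD and 4.46, 3.72, 2.97 and 4.27 CPM in WT. All TA libraries exceeded all TD libraries (log2 fold change -0.92, SE 0.212, edgeR adjusted p = 0.00809). Its counts ran from 45 to 134 per library, and it shares 571 exon bases with Tcp1 on the opposite strand, whose mean count was 3407.9 against 76.8, so the value of Acat3 is uncertain. Tcp1 was not called in any comparison.

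The remaining falls in TD against TA were smaller. Hsd17b7, at 59.2, 57.7, 58.2 and 61.2 CPM in TD, fell by 0.66 on the log2 scale. Acat2 fell by 0.50, Sc5d by 0.50, Mvd, the decarboxylase that makes isopentenyl diphosphate, by 0.40, Fdps, which makes farnesyl diphosphate, by 0.39, Fdft1 by 0.39, Msmo1, a sterol methyl oxidase, by 0.37, Ebp by 0.35, and Lss and Nsdhl by 0.26 each. The calls for Fdft1, Msmo1, Nsdhl and Lss were lost in 9, 6, 6 and 5 of the 19 other settings and the others in none. Mvk, Idi1, Ggps1 and the 4 enzymes Hmgcs1, Sqle, Tm7sf2 and Dhcr7 were not called between TD and TA. Mvk (26.7 to 37.2 CPM over all libraries), Idi1 (16.2 to 22.9 CPM) and Ggps1 (31.2 to 44.3 CPM) were not called in any comparison. Ggps1, which leads to geranylgeranyl diphosphate rather than to sterols, shares 257 exon bases with Arid4b on the opposite strand.

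**Figure D2:**
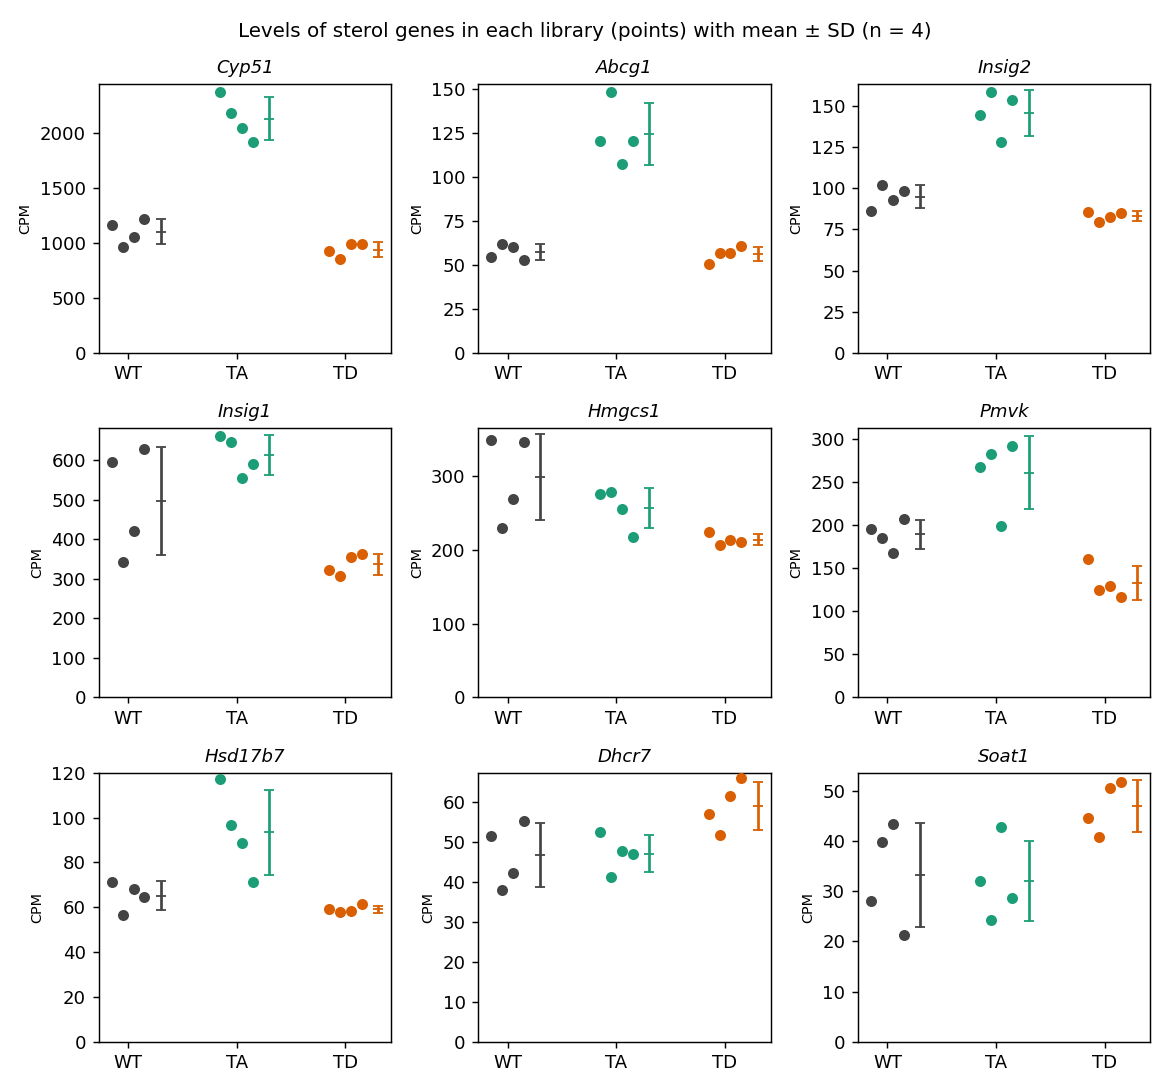
CPM in each of the 4 libraries per genotype (points, replicates 1 to 4 from left to right) with mean ± SD (bars) for 9 genes, each axis starting at 0. TA libraries stand apart above WT and TD for Cyp51, Abcg1 and Insig2, WT libraries are split in pairs for Insig1 and Hmgcs1, and TD is highest on average for Dhcr7 and Soat1.

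Of the SREBP2 control genes, the INSIG pair differed between genotypes and the SREBP2 and SCAP transcripts did not pass the test. Srebf2 measured 100, 104, 108 and 101 CPM in WT, 109, 105, 104 and 111 CPM in TA and 105, 113, 122 and 118 CPM in TD. The ranges overlapped. The log2 fold changes were 0.05 in TA against WT (95% interval -0.08 to 0.19) and 0.15 in TD against WT (0.01 to 0.29, adjusted p = 0.0976). Scap measured 42.9, 45.8, 45.4 and 46.2 CPM in WT, 41.6, 44.3, 37.9 and 40.0 CPM in TA and 41.4, 46.0, 44.9 and 50.8 CPM in TD. These ranges overlapped too, with log2 fold changes of -0.14 in TA (adjusted p = 0.276) and 0.02 in TD against WT (adjusted p = 0.857).

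Insig2 (chr1:121304353-121332589, minus strand), the INSIG form that is less dependent on SREBP2, measured 86.0, 102, 93.2 and 98.4 CPM in WT, 145, 159, 128 and 154 CPM in TA and 85.6, 79.4, 82.7 and 85.2 CPM in TD. TA lay above the other genotypes without overlap. Insig2 rose in TA over WT by 0.63 on the log2 scale (SE 0.0778, edgeR adjusted p = 6.88e-05) and fell by 0.81 in TD against TA (SE 0.0783, edgeR adjusted p = 6.52e-06). Every TD library was also just below every WT library, with a log2 fold change of -0.19 (adjusted p = 0.0802).

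Insig1 (chr5:28071363-28078662, plus strand), a direct target of SREBP2, measured 597, 343, 422 and 629 CPM in WT, 663, 647, 555 and 592 CPM in TA and 322, 308, 354 and 364 CPM in TD. WT spanned the gap between the mutants: WT replicates 1 and 4 were in the TA range and WT replicate 2 in the TD range. Insig1 fell in TD against WT by 0.56 on the log2 scale (SE 0.147, edgeR adjusted p = 0.00910) and in TD against TA by 0.87 (SE 0.148, edgeR adjusted p = 0.000999). In TA against WT it differed by 0.30 (SE 0.146, adjusted p = 0.211).

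The same split among WT libraries was seen in most of the synthesis enzymes. WT replicates 1 and 4 held the 2 highest WT values for 14 of the 20 enzymes, among them Hmgcs1, Mvd, Fdps, Cyp51 and Dhcr7. These libraries also had the highest WT adipocyte marker sums, 14827 and 14284 CPM against 12440 and 12816 CPM, and the lowest WT sums of fibroblast and preadipocyte markers, 9350 and 10193 CPM against 12651 and 11463 CPM. The 2 highest TA libraries were replicates 1 and 2 for 11 of the 20 enzymes, and TA replicates 2 and 4 had the highest TA adipocyte sums, 16761 and 15700 CPM. In TD they were replicates 1 and 3 for 8 of the 20, while TD replicates 1 and 2 had the highest adipocyte sums, 10129 and 10078 CPM. These pairs were picked after the values were seen, and no share over all tested genes was counted. Over all genes, chi-square per degree of freedom was also low between WT replicates 1 and 4 (9.66) and 2 and 3 (8.09), against 13.2 to 17.7 for other WT pairs. The part of these marker levels in the enzyme differences was not tested.

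The transport, esterification and efflux genes had no common direction. Of the 7, 1 rose and 1 fell in TA against WT (14.3% each, against 6.72% and 4.41% of all tested genes). In TD against WT 1 rose and 1 fell (14.3% each), near the 15.1% and 14.2% of all tested genes. In TD against TA 1 fell (14.3%, against 9.37%). The medians in these comparisons were 0.08, 0.00 and -0.01 on the log2 scale.

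Abcg1 (chr17:31057675-31117988, plus strand), the exporter that passes cholesterol to lipoprotein particles, showed the largest rise in TA of all 31 genes. It measured 54.3, 61.5, 60.3 and 52.9 CPM in WT, 120, 148, 107 and 120 CPM in TA and 50.6, 56.4, 56.6 and 60.7 CPM in TD. TA was apart from both, while WT and TD overlapped. Abcg1 rose in TA by 1.11 on the log2 scale (SE 0.0952, edgeR adjusted p = 1.61e-06), or 2.16-fold, and the difference of TD from TA was -1.14 (SE 0.0955, edgeR adjusted p = 1.44e-06). Between TD and WT it was -0.03, with a 95% interval of -0.23 to 0.17.

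Abca1, the exporter that loads lipid-poor apolipoprotein and another LXR target, did not share this pattern. It measured 505, 655, 652 and 636 CPM in WT, 797, 665, 614 and 605 CPM in TA and 646, 642, 658 and 725 CPM in TD, with overlapping ranges. Its log2 fold change in TA against WT was 0.13 (95% interval -0.08 to 0.35, adjusted p = 0.466), an interval that lies wholly below that of Abcg1 (0.91 to 1.31). Nr1h2 measured 76.3, 67.3, 71.4 and 71.7 CPM in WT, 72.3, 77.1, 66.4 and 86.3 CPM in TA and 69.8, 72.0, 74.1 and 69.9 CPM in TD. It was not called in any comparison, with log2 fold changes between -0.08 and 0.08.

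Stard4, a cytosolic sterol carrier and SREBP2 target, measured 41.7, 36.0, 43.0 and 39.3 CPM in WT, 54.0, 44.4, 46.6 and 43.0 CPM in TA and 48.9, 45.8, 50.9 and 49.0 CPM in TD. Both mutants lay at or above the highest WT library. Stard4 rose in TD over WT by 0.28 on the log2 scale (SE 0.0829, edgeR adjusted p = 0.0170), a call lost without WT replicate 2 or TD replicate 3 (highest adjusted p = 0.0557), and differed by 0.23 in TA (adjusted p = 0.0826). Its direction in TD was thus opposite to that of Insig1 and Hmgcs1, which SREBP2 also controls.

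Of the lysosomal pair that releases cholesterol taken up from outside, the test called Npc1 in TA against WT and Npc2 in TD against WT, and neither between TD and TA (log2 fold changes 0.15 and -0.06, adjusted p = 0.296 and 0.662). Npc1, the membrane protein of the pair, measured 80.5, 89.1, 103 and 85.6 CPM in WT, 70.1, 74.2, 62.4 and 83.9 CPM in TA and 77.9, 79.7, 80.1 and 83.9 CPM in TD. TA overlapped WT through TA replicate 4 alone. Npc1 fell in TA against WT by 0.30 on the log2 scale (SE 0.0911, edgeR adjusted p = 0.0415). This call held in 7 of 19 other settings, was lost without any 1 of 10 of the 12 libraries (all but WT replicate 1 and TA replicate 4), and reached an adjusted p of 0.129. Npc1 shares 511 exon bases with Rmc1 on the opposite strand (mean counts 1484.6 and 798.2), so the value of Npc1 is uncertain. Rmc1 itself differed in the same direction, by -0.27 in TA against WT (edgeR adjusted p = 0.0781). Npc2 fell in TD against WT by 0.26 (edgeR adjusted p = 0.0265), with every TD library (1033 to 1113 CPM) below every WT library (1212 to 1438 CPM), and the call held in 12 of 19. The values not called against WT were -0.16 for Npc1 in TD (adjusted p = 0.212) and -0.20 for Npc2 in TA (adjusted p = 0.140).

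Soat1, which esterifies cholesterol for storage, is named here because it was called in many other settings. It measured 28.0, 39.9, 43.5 and 21.2 CPM in WT, 32.0, 24.2, 42.9 and 28.7 CPM in TA and 44.7, 40.9, 50.7 and 51.7 CPM in TD. TD was highest on average, but WT and TA libraries reached into its range. TD differed from WT by 0.50 on the log2 scale (SE 0.192, adjusted p = 0.0603) and from TA by 0.55 (SE 0.193, adjusted p = 0.0591), and these were called in 9 and 8 of 19 other settings. Macrophages are known to express Soat1, and the 10 macrophage markers summed to 446, 849, 537 and 287 CPM in WT, 278, 143, 619 and 320 CPM in TA and 910, 741, 658 and 660 CPM in TD, with no marker at 0 in any genotype. In WT and in TA the library with the lowest marker sum had the lowest Soat1, whereas in TD the libraries with the lowest sums, replicates 3 and 4, had the highest Soat1. TA replicate 3 had both the highest sum and the highest Soat1 of TA. The WT library with the highest sum, replicate 2, did not have the highest Soat1 of WT. The mean marker sum was highest in TD, at 742 CPM, against 530 CPM in WT and 340 CPM in TA. Of these markers, 1 was called higher in TD than WT and 3 in TD than TA, and their part in the level of Soat1 was not tested.

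**Figure D3:**
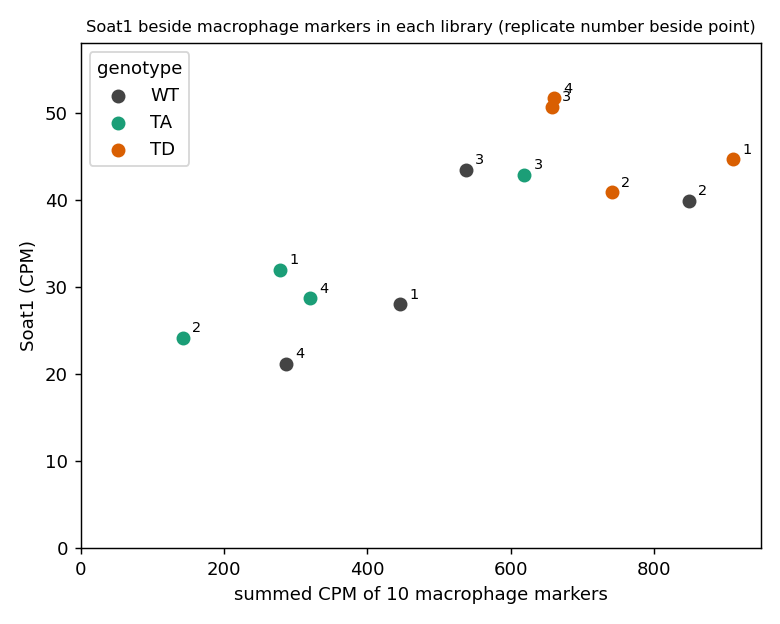
Soat1 in CPM (vertical) against the summed CPM of 10 macrophage markers (horizontal), 1 point per library with its replicate number, both axes starting at 0. TA replicate 2 and WT replicate 4, lowest in marker sum within TA and WT, have the lowest Soat1 (24.2 and 21.2 CPM). TA replicate 3, highest in marker sum within TA at 619 CPM, has the highest TA Soat1, at 42.9 CPM. TA replicate 1, whose sum of 278 CPM is below the 287 CPM of WT replicate 4, has Soat1 at 32.0 CPM. TD replicates 3 and 4, with the lowest TD sums, have the highest Soat1, at 50.7 and 51.7 CPM.

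Synthesis and transport were set against each other as scores, the mean log2 CPM of the genes of a role relative to each gene's mean over the 12 libraries. The synthesis score averaged -0.05 ± 0.12 for WT, 0.22 ± 0.096 for TA and -0.17 ± 0.047 for TD (SD, n = 4). All TA libraries (0.13 to 0.30) lay above all others, and the TD range (-0.22 to -0.12) overlapped the WT range (-0.16 to 0.06). Without Cyp51 the score was 0.19 ± 0.095 in TA and -0.15 ± 0.047 in TD, so the order did not rest on that gene. The transport score averaged -0.07 ± 0.095 for WT, 0.07 ± 0.035 for TA and 0.00 ± 0.059 for TD. Among its genes, Abcg1 differed by 1.11 on the log2 scale in TA against WT, and the others by -0.30 (Npc1) to 0.23 (Stard4). This score was not computed without Abcg1, so its higher value in TA may rest on that gene. The difference of synthesis minus transport was 0.15 ± 0.081 in TA, positive in each library (0.05 to 0.23), and -0.17 ± 0.076 in TD, negative in each library (-0.25 to -0.07). In WT it ran from -0.20 to 0.22 and covered nearly the whole span of both mutants, with replicates 1 and 4 positive and replicates 2 and 3 negative.

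**Figure D4:**
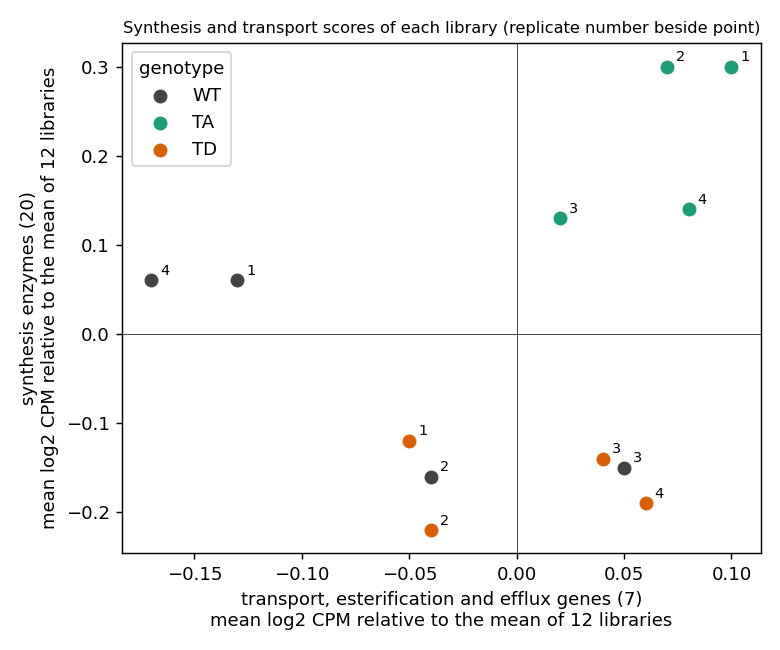
Synthesis score (vertical, 20 enzymes) against transport score (horizontal, 7 genes) for each of the 12 libraries, both as mean log2 CPM relative to the mean of all libraries, with replicate numbers. The 4 TA libraries sit at the upper right, WT replicates 1 and 4 at the upper left, and WT replicates 2 and 3 among the TD libraries below 0.

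Around the 31 genes, 55 further genes of sterol biology were tested, all of them with enough counts. In TA against WT 7 rose and 5 fell (12.7% and 9.09%, against 6.72% and 4.41% of all tested genes). In TD against WT 7 rose and 17 fell (12.7% and 30.9%, against 15.1% and 14.2%). In TD against TA 3 rose and 11 fell (5.45% and 20%, against 7.33% and 9.37%). Of the 7 genes that supply acetyl-CoA or divert it to ketones, 3 rose in TA over WT and none of the 7 was below 0, and 6 fell in TD against TA. Acly, which makes cytosolic acetyl-CoA from citrate, rose by 1.63 on the log2 scale in TA (SE 0.122, edgeR adjusted p = 3.41e-07), the largest rise of the 55. Slc25a1, the mitochondrial citrate exporter, had the largest fall in TD against TA, a log2 fold change of -1.10 (SE 0.0784, edgeR adjusted p = 3.06e-07). Acly also rose in TD against WT, by 0.72, and Slc25a1 fell there by 0.27.

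Of the 9 genes of SREBP processing and degradation few were called. Srebf1, which encodes the SREBP1 proteins that favour fatty acid synthesis, rose in TA by 0.32 (edgeR adjusted p = 0.0216) and fell in TD against TA by 0.37 (edgeR adjusted p = 0.00707), and Pgrmc1 fell in TD against WT by 0.39. Mbtps1, the protease of the first cleavage, rose in TD against WT by 0.19 and Erlin1 fell in TA by 0.34. In the isoprenoid branch, 13 genes, Rce1, which trims prenylated proteins, rose in TA by 0.83 and fell in TD against TA by 1.07 (edgeR adjusted p = 1.40e-06), and Fntb, a farnesyltransferase subunit, fell in both mutants against WT, by 0.52 in TA and 0.53 in TD.

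Of 26 other genes of sterol uptake, storage and transport, 2 rose and 3 fell in TA against WT (7.69% and 11.5%), and 4 rose and 9 fell in TD against WT (15.4% and 34.6%). The shares that rose, 7.69% and 15.4%, were near those of all tested genes, 6.72% and 15.1%. The shares that fell, 11.5% and 34.6%, were above those of all tested genes, 4.41% and 14.2%. Cyp7b1, an oxysterol hydroxylase, rose in both, by 1.12 in TA and 1.33 in TD, and Cyp27a1, which makes 27-hydroxycholesterol, fell in both, by 1.09 in TA and 1.00 in TD. Ch25h, which makes 25-hydroxycholesterol, rose in TD against TA by 1.31 (SE 0.368, edgeR adjusted p = 0.0231), and Scp2, a sterol carrier of peroxisomes, fell by 0.77 (edgeR adjusted p = 1.82e-05).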

How the data were processed

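Total RNA of 12 libraries (WT, TA and TD, 4 each, groups from the titles) was sequenced on an Illumina instrument. The submitters' processing notes name bcl2fastq 2.17.1.14, cutadapt 1.9.1, HISAT2 2.0.1 and HTSeq 0.6.1 with GRCm38, and the strand setting is not given in the sources used here. The deposited values are raw counts per gene, not normalized by the authors, and were used as deposited from the matrix of all libraries. Columns of other samples numbered 0.

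Genes were kept by filterByExpr (minimum count 10, minimum total 15) and fitted over all 12 libraries with edgeR 4.0.16 (R 4.3.3) after TMM scaling, with glmQLFit and glmQLFTest, 2-sided contrasts between genotypes and Benjamini-Hochberg adjustment over 15117 genes. SEs derive from the same fit. Alternatives were median-of-ratios factors, library totals, DESeq2 1.42.0, no filter, 10 counts in every library, only the 2 genotypes compared, the replicate number as a block, and leaving out each library. The procedure was tested on simulated data with 200 genes changed in TD, fewer than were called here. In TD against WT it recovered 34.3% of genes changed by 0.5 on the log2 scale and 79.8% of those changed by 1. Of its calls 3.42% were false. Genes with changes of 0.5 can therefore go uncalled. Exon lengths per kb came from GENCODE M21, in which 99.8% of gene identifiers were found. Within genotypes no 2 libraries agreed within sampling noise (chi-square per degree of freedom 4.95 to 38.7 over 18 pairs).

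The 31 genes, their roles and the wider lists were chosen with earlier results of these data known. Genes described library by library were those among the 4 largest called rises or falls of a comparison, with Srebf2, Scap, Insig1, Insig2, Nr1h2, Abca1 and Abcg1, and the wider lists gave the called gene with the largest rise and fall. Other genes beyond this rule were named after their values were seen.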

Additional observations from a re-analysis of the deposited data

Results flagged for a closer look

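Each of the 31 genes was checked within each genotype for 1 library far from the other 3, by Dixon's test at its 95% critical value. Of 93 sets of 4 libraries 3 had such a library, and chance alone gives about 1 in 20. Acat2 was at 92.9 CPM in TD replicate 4, below the other TD libraries at 98.1 to 99.0 CPM. Idi1, the isopentenyl diphosphate isomerase, was at 17.6 CPM in WT replicate 3 while the others were at 18.9 to 19.1 CPM. Abca1 was at 505 CPM in WT replicate 1 while the others were at 636 to 655 CPM, and without that library it was still not called in TA or TD against WT.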

How the results depend on the processing

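Over 19 other settings no call changed direction. Calls held in every setting for 4 of 8 genes in TD against WT, 6 of 12 in TA against WT and 12 of 16 in TD against TA. The number called higher in TD than WT (2) became 5 with library totals and 4 with only those genotypes fitted, and 0 to 3 when 1 library was left out. The number higher in TA than WT (11) was 6 to 11, and the number lower (1) was 0 to 1 when 1 library was left out and 0 with only those genotypes fitted. The number higher in TD than TA (0) became 3 with library totals, 2 with DESeq2, 2 with no filter, 1 with 10 counts in every library, 2 with only those genotypes fitted, and 0 to 2 with 1 library left out. The number lower was 4 to 7 in TD against WT and 12 to 17 in TD against TA with 1 library left out. The median of the synthesis enzymes in TD against TA (-0.36) was -0.28 with library totals. The median of the transport genes in TD against TA (-0.01) was 0.07 with library totals and -0.05 to 0.09 with 1 library left out, and in TA against WT (0.08) it was 0.00 to 0.13. With no filter the share of higher calls among all called genes in TD against TA was 54.3%, against 43.9%. The causes of these changes were not tested.

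Acat2 and Npc2 in TD against WT lost their calls with library totals and without any of WT replicate 1, WT replicate 4 or a TD replicate (adjusted p up to 0.118 and 0.103). In TA against WT Sqle lost its call without WT replicate 2, WT replicate 3 or TA replicate 1 (up to 0.0818), Lss without any of 10 libraries (up to 0.131), Tm7sf2 without any WT library or TA replicates 1, 2 or 4 (up to 0.0871) and Sc5d without any WT library, TA replicates 1 or 2 or TD replicates 2 or 3 (up to 0.137). In TD against TA Fdft1, Lss, Msmo1 and Nsdhl lost theirs with library totals and without 4 to 7 of the libraries (up to 0.162, 0.0812, 0.0956 and 0.107).

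No pairing of the libraries by replicate number was seen. The deviations of 12 same-numbered pairs correlated at -0.237 to 0.196, with 2 over 0.1. Of the 12 libraries, 0 were closest to their own number in both other genotypes. Such correlations over all genes cannot exclude a weak effect shared by same-numbered libraries. With the replicate block, 3 genes were higher and 6 lower in TD than WT, 9 higher and 0 lower in TA than WT, and 2 higher and 16 lower in TD than TA. The medians of the synthesis enzymes were -0.13, 0.26 and -0.36 with the block. Counts of 45 to 134 limit Acat3.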
